A study of Homo sapiens with 6 samples.

Results

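The human genes named ZNF with a number encode zinc finger proteins, and they lie in dense groups on chromosome 19, on chromosome 7 and scattered over the other chromosomes. The genes described here are those outside chromosomes 7 and 19, taken as every row of the count table whose GENCODE 29 symbol is ZNF, a number and at most 1 closing letter. There were 218 of them among 18677 rows, on 20 chromosomes, of 258 such genes that GENCODE 29 annotates. Another 250 zinc finger rows lay on chromosome 19 and 38 on chromosome 7. Of the 218 genes, 210 were protein-coding, and 214 had enough counts to be tested. The 4 that did not were ZNF859P, ZNF474, ZNF705E and ZNF157.

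A zinc finger of the C2H2 kind is a short fold held by a zinc ion, and a row of such fingers can bind a chosen stretch of DNA. Many of these proteins also carry a KRAB domain, which binds the co-repressor TRIM28 and through it the histone methyltransferase SETDB1. SETDB1 writes the repressive mark H3K9me3 at retroelements and at the zinc finger genes themselves, where ZNF274 is known to bring it to the last exons. A SCAN domain, found in a smaller group, lets these proteins pair with each other.

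The study measured RNA in H1299, an established line from a human non-small cell lung cancer that lacks functional p53. The libraries were 3 from cells with a guide RNA against SETDB1 (hSETDB1 sg1, the SETDB1 knockout) and 3 from cells with a control guide (Control sg2, the control knockout), and both groups were grown with puromycin. Each group thus rests on 1 guide, the labels do not say that the replicates were separate cultures, and the p-values measure only the spread between these samples. Library totals were 29532057 to 34320279 counts in the SETDB1 knockout and 30729681 to 35941288 counts in the control knockout. SETDB1 mRNA itself was 38.6 ± 2.31 CPM in SETDB1-knockout cells and 43.5 ± 1.76 CPM in control-knockout cells (SD, n = 3 each), with a log2 fold change of -0.17 at an adjusted p of 0.0151 (edgeR). Without SETDB1-knockout replicate 2 it was -0.13 at 0.0896, and transcript level is no measure of a guide's edit. Of genes that mark the line, VIM had 2216 CPM in SETDB1-knockout cells and 2430 CPM in control-knockout cells, and KRT18 had 332 CPM in SETDB1-knockout cells and 599 CPM in control-knockout cells. EPCAM was low in both, at 0.179 CPM in SETDB1-knockout cells and 0.254 CPM in control-knockout cells.

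Levels are in CPM, read counts divided by the scaled size of the library, and fold changes are SETDB1 knockout over control knockout on the log2 scale with their standard error (SE). A gene is called when its adjusted p from edgeR's quasi-likelihood test, with Benjamini-Hochberg adjustment over all 17675 genes tested, is under 0.05. In bulk RNA, fewer cells that express a gene and less RNA per cell cannot be told apart. The sources used here do not say whether the libraries were stranded, so reads of a gene and of one on the opposite strand cannot be told apart.

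As a whole the scattered zinc finger genes moved in both directions by small amounts. Of the 214 tested, 81 were called higher and 67 lower in the SETDB1 knockout, and 66 were not called. That is 69.2% called, beside 63.5% of all genes tested. In the higher direction it is 37.9% of the zinc finger genes beside 31.9% of all genes, and in the lower direction 31.3% beside 31.6%. Their median log2 fold change was 0.04, against 0.01 for all genes, with quartiles at -0.21 and 0.38. Among the 148 called, 95 moved by less than 1.5-fold, which is 64.2% beside 57.0% of called genes in the whole table. All SETDB1-knockout libraries lay above all control libraries in 89 genes, 41.6% of those tested against a background of 33.5%, and below them in 73 genes, 34.1% against 33.3%. Summed over the 218 genes, the SETDB1-knockout libraries had 5439.1, 5347.0 and 5363.7 CPM and the control libraries had 5340.2, 5362.9 and 5289.8 CPM, so the sums of the groups overlapped on this scale. As shares of all counts without scaling, they were 0.5526%, 0.5393% and 0.5458% in the SETDB1 knockout. In the control knockout they were 0.5208%, 0.5345% and 0.5211%, without overlap, so the overlap depends on the scaling.

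The 66 genes that were not called had log2 fold changes from -0.50 to 0.42. On chromosome 19 the zinc finger genes moved mainly upward, with 171 higher and 38 lower of 247 tested and a median of 0.46, and on chromosome 7 there were 24 higher and 4 lower of 38 with a median of 0.42. Other C2H2 genes outside these chromosomes, those named ZFP, ZSCAN, ZKSCAN or ZBTB, had 16 higher and 20 lower of 59 with a median of -0.06. Neighbours without a zinc finger name had medians of 0.253 around the chromosome 19 genes and -0.185 around those of chromosome 7. Once the median of each gene's neighbours was taken out, the median was 0.19 on chromosome 19 and 0.3 on chromosome 7. It was then 0.042 for the scattered genes and -0.057 for the other C2H2 genes. The difference between these lists was not tested.

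**Figure D1:**
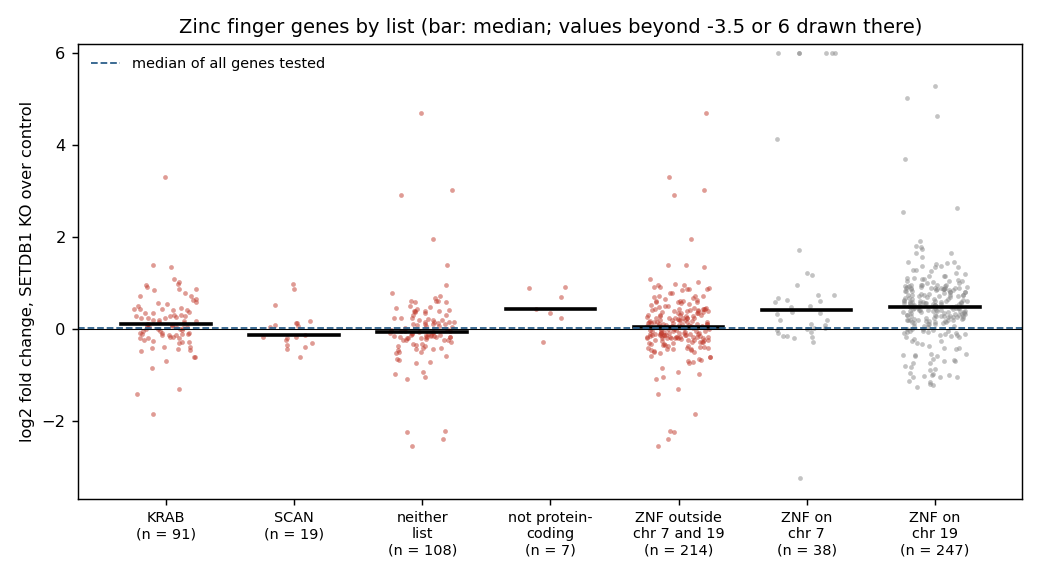
Log2 fold changes (SETDB1 knockout over control knockout, vertical axis) of zinc finger genes by list, 1 point per gene with the list's median as a bar and the median of all genes as a dashed line, where values beyond the range of the axis are drawn at its ends. The genes outside chromosomes 7 and 19 centre on 0.04 and spread to both sides, and those on chromosome 19 centre on 0.46.

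Grouped by domain, the 91 tested genes listed as KRAB genes had 38 higher (41.8%) and 23 lower (25.3%) calls and a median of 0.10. Among all genes tested, 31.9% were called higher and 31.6% lower. Genes of the SCAN list had 3 higher (15.8%) and 9 lower (47.4%) calls of 19, with a median of -0.15. These falls came mostly from the 11 genes on both lists, with 1 higher, 7 lower and a median of -0.18. The 8 SCAN genes not on the KRAB list had 2 higher and 2 lower. Both lists were written by hand and may miss members, so this split holds for the lists as written. The 108 protein-coding genes in neither list had 37 higher (34.3%) and 41 lower (38.0%) calls and a median of -0.08. Of the 8 genes that are not protein-coding, 7 were tested, 4 were called higher (57.1%) and 1 lower (14.3%). Once the median log2 fold change of each gene's neighbours was taken out, the medians were 0.035 for KRAB, 0.006 for SCAN and 0.021 for neither list. For genes on both lists it was -0.155, for SCAN genes not on the KRAB list 0.098 and for genes that are not protein-coding 0.583. Differences between these lists were not tested.

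Calls close to the threshold rest on individual libraries. Of the 81 higher calls 69 held in every fit that left out 1 library, and of the 67 lower calls 51 did. In the genes on both the KRAB and the SCAN list, 4 of the 7 lower calls held in all of those fits. The others were ZNF202, ZNF445 and ZNF197. ZNF202 was lost without SETDB1-knockout replicate 2 or 3 or control replicate 1 or 2, at adjusted p-values of 0.0911 to 0.167 (edgeR), and ZNF445, which helps keep genomic imprints, was lost without the same libraries at 0.0817 to 0.203. ZNF197 was lost without SETDB1-knockout replicate 2 (0.108) or control replicate 1 (0.0592).

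The clearest grouping in space was at the end of the long arm of chromosome 12, where 7 KRAB genes lie side by side from 132918308 to 133214831 (GRCh38). In map order they are ZNF605, ZNF26, ZNF84, ZNF140, ZNF891, ZNF10 and ZNF268. All 7 rose, by log2 fold changes of 0.34 to 1.38 with a median of 0.71. ZNF10 is the gene also known as KOX1, whose KRAB domain is widely used to silence genes in engineered repressors. The promoter windows of the ZNF605, ZNF891 and ZNF10 genes are shown here because ZNF605 and ZNF891 rose most in the cluster, and ZNF891 and ZNF10 start beside each other in opposite directions. Each window runs from 250 bases before to 50 bases after the gene's start, as RefSeq gives it on GRCh38.p14, 5′ to 3′ on the gene's strand, with every CG dinucleotide, the site of DNA methylation, in capitals. The ZNF605 window is chr12:132956257-132956556 (minus strand), that of ZNF891 is chr12:133130225-133130524 (minus strand) and that of ZNF10 is chr12:133130377-133130676 (plus strand).
ZNF605: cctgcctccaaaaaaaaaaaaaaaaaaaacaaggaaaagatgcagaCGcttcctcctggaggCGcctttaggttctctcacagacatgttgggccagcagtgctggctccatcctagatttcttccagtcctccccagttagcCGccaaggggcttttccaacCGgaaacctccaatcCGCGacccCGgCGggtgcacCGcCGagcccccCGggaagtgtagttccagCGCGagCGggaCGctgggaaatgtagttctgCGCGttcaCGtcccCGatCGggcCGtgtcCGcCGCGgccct
ZNF891: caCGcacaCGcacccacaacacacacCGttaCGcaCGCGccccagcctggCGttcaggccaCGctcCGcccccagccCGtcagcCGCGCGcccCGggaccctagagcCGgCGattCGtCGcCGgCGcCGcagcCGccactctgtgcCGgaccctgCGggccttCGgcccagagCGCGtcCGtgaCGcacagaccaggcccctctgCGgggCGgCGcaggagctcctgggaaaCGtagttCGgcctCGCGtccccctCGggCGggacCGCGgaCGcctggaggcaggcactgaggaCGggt
ZNF10: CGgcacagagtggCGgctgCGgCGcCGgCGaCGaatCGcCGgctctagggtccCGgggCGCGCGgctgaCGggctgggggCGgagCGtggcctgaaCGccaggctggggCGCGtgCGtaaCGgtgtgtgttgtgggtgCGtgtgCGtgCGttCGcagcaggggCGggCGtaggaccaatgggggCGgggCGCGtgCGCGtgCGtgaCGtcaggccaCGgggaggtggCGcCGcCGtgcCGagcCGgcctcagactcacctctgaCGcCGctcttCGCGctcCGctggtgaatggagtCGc
The starts of ZNF891 and ZNF10 are 353 bases apart, and their windows share 148 bases read from opposite strands. These 3 windows hold 24, 42 and 46 CG dinucleotides in the order printed.

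ZNF891 had 59.7, 54.6 and 57.7 CPM in SETDB1-knockout cells and 22.9, 21.6 and 21.5 CPM in control-knockout cells. Every SETDB1-knockout library was above every control library, and the log2 fold change was 1.38 ± 0.06 (SE; edgeR adjusted p = 1.10e-13). ZNF605 had levels of 42.8, 40.5 and 41.6 CPM in SETDB1-knockout cells, against 20.3, 20.9 and 20.2 CPM in control-knockout cells. Its groups were again apart, with a log2 fold change of 1.03 ± 0.06 (SE; edgeR adjusted p = 7.46e-12). ZNF10, whose promoter window overlaps that of ZNF891, had 18.2, 18.8 and 16.9 CPM in SETDB1-knockout cells and 10.5, 10.5 and 8.92 CPM in control-knockout cells, a log2 fold change of 0.85 ± 0.08 (SE; edgeR adjusted p = 1.26e-08). ZNF268, at the outer end, averaged 44.1 ± 2.54 CPM in SETDB1-knockout cells and 26.9 ± 1.80 CPM in control-knockout cells (SD, n = 3 each) and rose by a log2 fold change of 0.71. The 3 between ZNF605 and ZNF891 rose least. ZNF140 averaged 26.0 CPM in SETDB1-knockout cells and 17.4 CPM in control-knockout cells, with a log2 fold change of 0.58. ZNF84, the most abundant of the cluster by CPM, averaged 82.3 CPM in SETDB1-knockout cells and 61.4 CPM in control-knockout cells, with a log2 fold change of 0.42. ZNF26 averaged 32.3 CPM in SETDB1-knockout cells and 25.5 CPM in control-knockout cells, with a log2 fold change of 0.34. In none of the 7 did the libraries of the groups overlap. Exons of ZNF891 on the opposite strand overlap 13.5% of the exon bases of ZNF140. AC026786.1, on the same strand, overlaps 9.6% of those of ZNF10 and 6.0% of those of ZNF268. Overlap with other genes was 5.2% in ZNF891, 2.2% in ZNF605, 1.4% in ZNF26 and 0.0% in ZNF84. Part of the counts may thus be shared between overlapping genes.

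Summed over the cluster, the level was 308.8, 297.5 and 298.6 CPM in SETDB1-knockout cells and 183.8, 185.4 and 181.7 CPM in control-knockout cells. The cluster's neighbours moved less. The 25 expressed genes nearest to it without a zinc finger name had a median log2 fold change of 0.07, all of them on the side of the centromere since the cluster ends the chromosome's genes. Within 500 kb, 12 other genes were tested, of which 7 were called higher and 1 lower with a median of 0.26. Among these, CHFR, the gene of an E3 ubiquitin ligase, runs from 132822187 to 132956304 and so covers nearly all of ZNF605. Its exons overlap 2.2% of the exon bases of ZNF605, on the same strand. CHFR had 40.4 CPM in SETDB1-knockout cells and 34.2 CPM in control-knockout cells. It was called higher, at 0.24 on the log2 scale. GOLGA3 had 52.9 CPM in SETDB1-knockout cells and 50.5 CPM in control-knockout cells and was not called. With the neighbourhood median taken out, all 7 zinc finger genes kept their call, and 4 passed a test against a change of 1.5-fold.

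**Figure D2:**
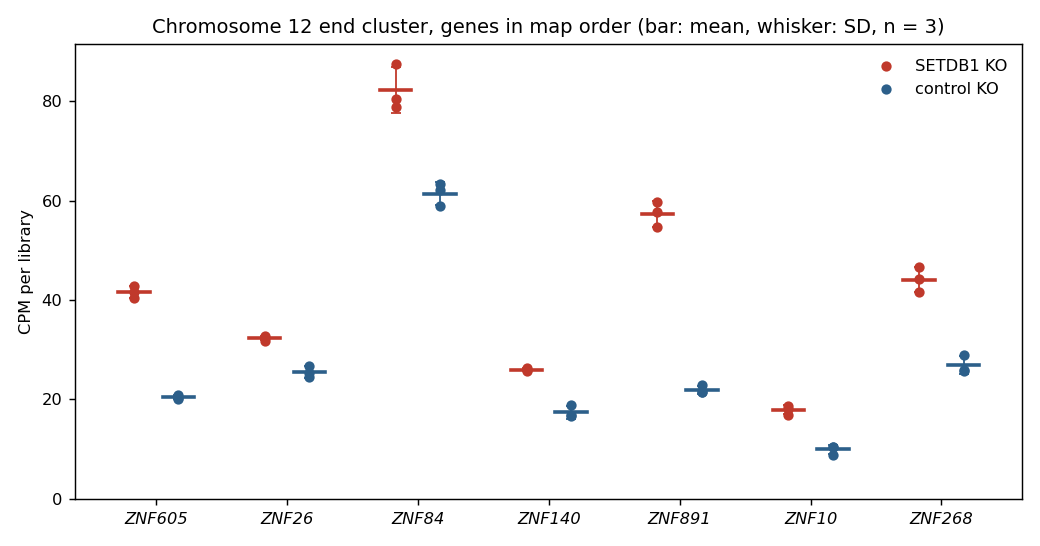
CPM of the 7 zinc finger genes at the end of chromosome 12 (horizontal axis, in map order), 1 point per library, with the mean as a bar and the SD as a whisker for 3 SETDB1-knockout libraries (left of each pair) and 3 control-knockout libraries. In each gene the SETDB1-knockout points lie above the control points, with the widest relative gap in ZNF891.

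A cluster here is a run of at least 4 of the genes with gaps of at most 500 kb, and 12 such runs held 69 of the 218 genes. Of the 68 tested in clusters, 31 were called higher (45.6%) and 15 lower (22.1%) with a median log2 fold change of 0.14. Of the 146 outside clusters 50 were called higher (34.2%) and 52 lower (35.6%) with a median of -0.02. The shares of all genes tested were 31.9% and 31.6%. The chromosome 12 run gave 7 of the 31 higher calls, and the difference between genes in and outside clusters was not tested. No cluster other than that of chromosome 12 was called in 1 direction throughout.

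Near the end of chromosome 1 (246945547 to 247331846), 4 of 5 genes were called higher. ZNF695 led them with 17.6, 19.4 and 18.8 CPM in SETDB1-knockout cells and 6.91, 7.19 and 7.82 CPM in control-knockout cells. The groups lay well apart, and the log2 fold change was 1.35 ± 0.08 (SE; edgeR adjusted p = 1.04e-11). Its neighbours ZNF670, ZNF669 and ZNF124 were called higher with log2 fold changes of 0.70, 0.43 and 0.24, in the order of their distance from ZNF695. The call of ZNF124 was lost without each of the SETDB1-knockout libraries in turn, or without control replicate 2 or 3, at adjusted p-values of 0.066 to 0.177 (edgeR). ZNF496, a gene with KRAB and SCAN at the far end of the run, fell by 0.24 on the log2 scale, and 13 other genes within 500 kb had a median of 0.35.

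The run on chromosome 8 (144720907 to 145002895) had 5 of 7 genes called higher, with a median of 0.43, and its neighbours moved as far, with a median of 0.50. ZNF251 rose most of them, at 21.9 ± 0.88 CPM in SETDB1-knockout cells and 12.8 ± 0.49 CPM in control-knockout cells (SD, n = 3 each). After the neighbourhood median was taken out, ZNF251 was the sole higher call of the run, and 2 of its genes were called lower. Of 27 other genes within 500 kb, 21 were called higher, and whether the region or the genes moved was not tested. In the run on chromosome 5 that holds the ZNF354 genes, 3 of 5 were called higher and 1 lower. ZNF879 averaged 7.40 CPM in SETDB1-knockout cells and 4.03 CPM in control-knockout cells, a log2 fold change of 0.87, whereas ZNF354B fell by 0.28 on the log2 scale.

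At the start of chromosome 4 neighbours went opposite ways. ZNF595, the outermost, had 22.4, 21.3 and 22.8 CPM in SETDB1-knockout cells and 11.7, 11.4 and 11.4 CPM in control-knockout cells, a log2 fold change of 0.94 ± 0.07 (SE; edgeR adjusted p = 2.17e-10) with no overlap. The next gene, ZNF718, averaged 11.3 ± 0.12 CPM in SETDB1-knockout cells and 13.8 ± 0.70 CPM in control-knockout cells (SD, n = 3 each) and fell by 0.28 on the log2 scale. Both runs on chromosome 10 stood above their surroundings: ZNF37A and ZNF239 rose by log2 fold changes of 0.53 and 0.61, while the neighbours had medians of -0.23 and -0.33. The runs on chromosomes 3, 18 and X had 2 lower calls each and no higher call. Those of chromosome 3 were ZNF445 and ZNF197, whose calls did not hold without individual libraries as given above. On chromosome 18 ZNF24 fell by 0.31 and ZNF271P by 0.28 on the log2 scale, beside neighbours with a median of -0.42, and with that median taken out the values were 0.11 and 0.14. On chromosome 16 the run that ends in ZNF597 had 2 calls each way of 7 genes, and that around ZNF747 and ZNF785 had 3 each way of 11.

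**Figure D3:**
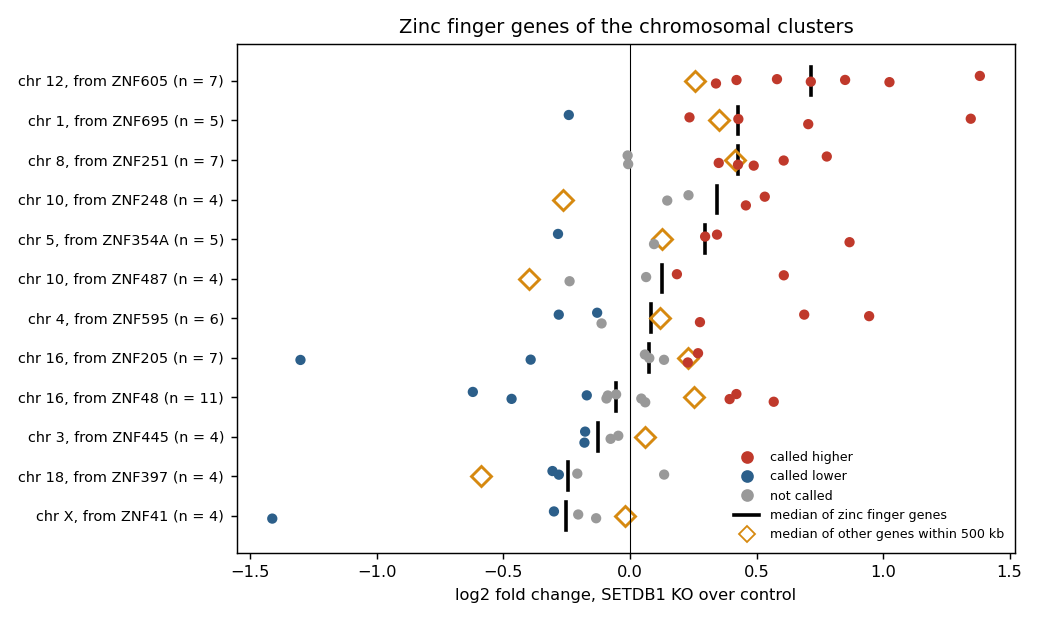
Log2 fold changes (SETDB1 knockout over control knockout, horizontal axis) of the genes in each of the 12 runs, 1 point per gene, coloured by call, with their median as a bar and the median of the other genes within 500 kb as an open diamond. All 7 points of the chromosome 12 run lie right of its diamond at 0.26, and the diamond of the chromosome 8 run, at 0.41, lies among its points.

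Changes of 2-fold or more were called in 19 of the scattered genes, 10 higher and 9 lower. That is 4.67% higher and 4.21% lower, below the 7.14% and 5.78% of all genes tested. Just inside that bound were ZNF605 at 1.03 and ZNF703 at -1.05, and just outside were ZNF287 at 0.97 and ZNF367 at -0.99. All 19 kept their call under every setting run, each library left out included.

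The 3 largest rises were in genes that were under 1 CPM in every control library. ZNF365, whose product is known at centrosomes and in the upkeep of fragile sites, had 2.37, 3.12 and 2.81 CPM in SETDB1-knockout cells and 0.100, 0.126 and 0.0847 CPM in control-knockout cells. The SETDB1-knockout libraries were all above the control libraries, and the fold was 26.0 (log2 4.70 ± 0.28, SE; edgeR adjusted p = 1.35e-11), from 10 counts in all control libraries and 275 in the SETDB1 knockout. The gene lies on chromosome 10 (62374192 to 62670301), and its neighbours had a median of -0.57. Other annotated genes cover 31.1% of its exon bases, so part of its counts may belong to them. ZNF334, a KRAB gene on chromosome 20 (46499630 to 46513559), had 4.73, 3.96 and 3.89 CPM in SETDB1-knockout cells and 0.367, 0.378 and 0.508 CPM in control-knockout cells. It rose 9.82-fold (log2 3.30 ± 0.19, SE; edgeR adjusted p = 8.76e-12) with groups far apart, no exon overlap and no 50-base stretch shared with another gene.

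The windows at the starts of these genes are printed because both genes were near silence in the control. They are chr10:62374119-62374418 on the plus strand for ZNF365 and chr20:46513510-46513809 on the minus strand for ZNF334, on the same build and with the same marking.
ZNF365: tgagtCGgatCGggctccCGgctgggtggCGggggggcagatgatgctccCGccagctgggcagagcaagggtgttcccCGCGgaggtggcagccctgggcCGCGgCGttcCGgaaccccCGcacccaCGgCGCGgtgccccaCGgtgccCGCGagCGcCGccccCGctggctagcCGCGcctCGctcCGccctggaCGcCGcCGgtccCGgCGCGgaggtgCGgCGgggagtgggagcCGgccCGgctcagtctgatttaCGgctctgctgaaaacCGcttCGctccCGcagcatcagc
ZNF334: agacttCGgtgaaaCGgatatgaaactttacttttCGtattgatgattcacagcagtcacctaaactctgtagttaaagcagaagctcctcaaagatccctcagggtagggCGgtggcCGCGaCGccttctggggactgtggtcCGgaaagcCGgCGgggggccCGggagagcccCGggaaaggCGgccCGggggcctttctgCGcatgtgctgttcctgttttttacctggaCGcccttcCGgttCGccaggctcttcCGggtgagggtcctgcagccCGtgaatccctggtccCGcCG
They hold 39 and 22 CG dinucleotides, against a median of 14 in all 35116 windows of the RefSeq table.

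ZNF80 on chromosome 3 (114234631 to 114237578), a gene first described in blood cells as transcribed from the repeat of an endogenous retrovirus of the ERV9 family, had 2.77, 2.66 and 2.46 CPM in SETDB1-knockout cells and 0.434, 0.221 and 0.311 CPM in control-knockout cells. The groups did not overlap, and the fold was 8.13 (log2 3.02 ± 0.22, SE; edgeR adjusted p = 3.26e-10). A gene on the opposite strand overlaps 53.4% of its exon bases, so the source of the reads cannot be told apart.

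The ZNF385 genes, which encode related proteins with fingers of a type known to bind RNA, rose together. ZNF385D had 18.5, 20.3 and 18.99 CPM in SETDB1-knockout cells and 2.74, 2.33 and 2.65 CPM in control-knockout cells. This was a clear separation, 7.47-fold (log2 2.90 ± 0.09, SE), with the smallest adjusted p of any higher call among the scattered genes (1.33e-15, edgeR). ZNF385B on chromosome 2 had 3.73, 3.41 and 3.95 CPM in SETDB1-knockout cells and 0.868, 1.04 and 0.932 CPM in control-knockout cells, a log2 fold change of 1.96 ± 0.15 (SE; edgeR adjusted p = 1.02e-09). ZNF385A, known as a partner of p53, which this line lacks, rose less, with 6.69 ± 0.34 CPM in SETDB1-knockout cells and 5.23 ± 0.42 CPM in control-knockout cells (SD, n = 3 each) and a log2 fold change of 0.35. With the median of its neighbours taken out ZNF385A was not called, at 0.16. Exon sequence shared with other genes was at most 2.3% in these 3, which lie on chromosomes 3, 2 and 12.

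ZNF594 on the short arm of chromosome 17 had 36.03, 33.1 and 34.1 CPM in SETDB1-knockout cells and 12.8, 13.9 and 12.7 CPM in control-knockout cells. It rose by a log2 fold change of 1.39 ± 0.07 (SE; edgeR adjusted p = 5.14e-13) with no overlap, in a region whose other genes had a median of 0.81. With that median taken out the value was 0.57, still called. ZNF232, a SCAN gene near it, averaged 22.9 CPM in SETDB1-knockout cells and 12.6 CPM in control-knockout cells, a log2 fold change of 0.86, and with the same median taken out it was not called, at a log2 fold change of 0.05. ZNF720, a KRAB gene on chromosome 16, had 26.8, 30.5 and 28.2 CPM in SETDB1-knockout cells and 13.2, 13.8 and 13.2 CPM in control-knockout cells, a log2 fold change of 1.09 ± 0.07 (SE; edgeR adjusted p = 3.30e-11). Its groups were apart and its neighbours' median was 0.18.

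**Figure D4:**
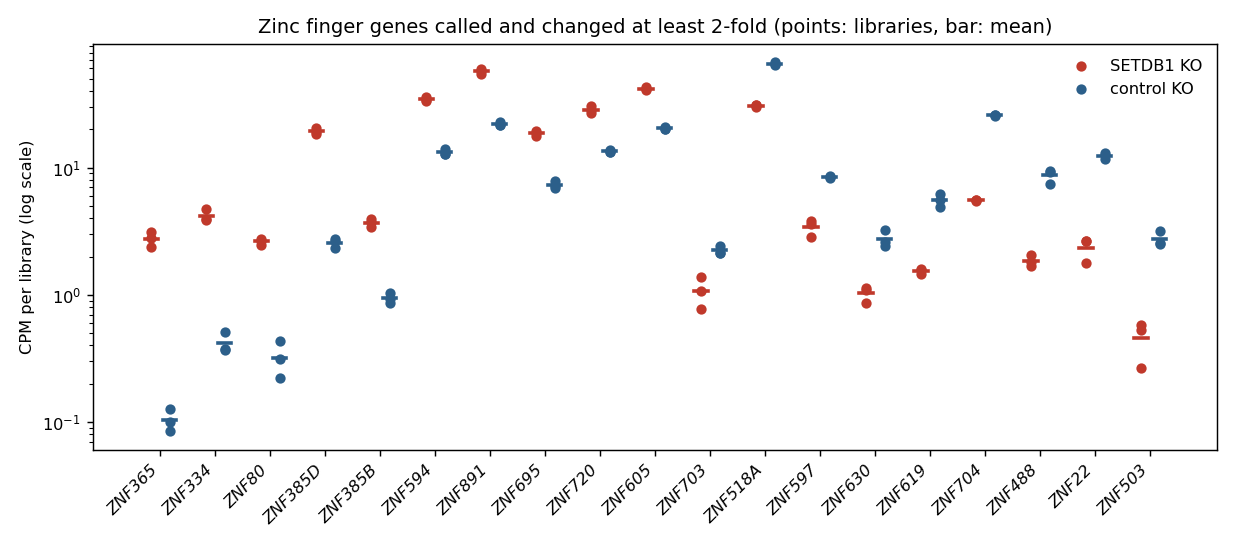
CPM on a log scale (vertical axis) of the 19 zinc finger genes called with a change of at least 2-fold, 1 point per library, SETDB1 knockout left of control knockout in each pair, with the mean as a bar. The libraries of the groups do not overlap in any of the 19, and the widest gap is in ZNF365, with 2.37 to 3.12 CPM in SETDB1-knockout cells and 0.0847 to 0.126 CPM in control-knockout cells.

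Among the falls of 2-fold or more, 4 of 9 were on chromosome 10, where the 646 other genes tested had a median of -0.43. ZNF503, a co-repressor of the NET family that acts in development, had 0.267, 0.578 and 0.527 CPM in SETDB1-knockout cells and 3.17, 2.49 and 2.57 CPM in control-knockout cells. The groups were far apart, and the level was 5.84-fold lower (log2 -2.55 ± 0.22, SE; edgeR adjusted p = 4.16e-09). ZNF22, known in tooth development, had 1.77, 2.63 and 2.63 CPM in SETDB1-knockout cells and 11.8, 12.9 and 12.6 CPM in control-knockout cells, 5.26-fold lower (log2 -2.39 ± 0.11, SE; edgeR adjusted p = 6.35e-13) with no overlap. Other genes on the opposite strand cover 45.3% of its exon bases. ZNF488, which in the mouse promotes the maturation of oligodendrocytes, had 2.07, 1.68 and 1.81 CPM in SETDB1-knockout cells and 7.47, 9.27 and 9.35 CPM in control-knockout cells, 4.72-fold lower (log2 -2.24 ± 0.13, SE; edgeR adjusted p = 6.93e-12). ZNF518A had 29.8, 31.1 and 31.0 CPM in SETDB1-knockout cells and 67.0, 65.1 and 64.1 CPM in control-knockout cells, a log2 fold change of -1.09 ± 0.05 (SE; edgeR adjusted p = 9.06e-13). All libraries of these genes were apart between the groups. With the median of the neighbourhood taken out the values were -2.03 for ZNF503, -2.06 for ZNF22, -1.80 for ZNF488 and -0.47 for ZNF518A, so ZNF518A moved furthest toward 0.

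The windows of ZNF22 and ZNF503 are shown for comparison with those of the genes that rose. The ZNF22 window is chr10:45000673-45000972 on the plus strand, and the ZNF503 window is chr10:75401867-75402166 on the minus strand.
ZNF22: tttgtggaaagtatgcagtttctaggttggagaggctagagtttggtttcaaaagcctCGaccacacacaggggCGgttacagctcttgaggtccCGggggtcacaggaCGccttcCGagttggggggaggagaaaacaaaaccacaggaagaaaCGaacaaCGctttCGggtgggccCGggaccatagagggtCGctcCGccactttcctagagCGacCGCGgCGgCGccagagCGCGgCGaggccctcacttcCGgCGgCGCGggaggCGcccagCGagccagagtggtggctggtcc
ZNF503: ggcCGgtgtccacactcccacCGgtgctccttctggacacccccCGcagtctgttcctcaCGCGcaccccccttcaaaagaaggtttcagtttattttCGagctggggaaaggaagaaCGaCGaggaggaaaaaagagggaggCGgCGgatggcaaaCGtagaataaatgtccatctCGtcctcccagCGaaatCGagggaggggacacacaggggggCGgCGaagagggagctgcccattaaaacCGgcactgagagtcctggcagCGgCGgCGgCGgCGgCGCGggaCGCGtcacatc
They hold 25 and 26 CG dinucleotides, within the range of the windows above.

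ZNF704 on chromosome 8 had the smallest adjusted p of all falls among the scattered genes. It had 5.60, 5.52 and 5.47 CPM in SETDB1-knockout cells and 25.3, 25.9 and 26.1 CPM in control-knockout cells. The replicates were tight and the groups far apart, 4.66-fold lower (log2 -2.22 ± 0.07, SE; edgeR adjusted p = 1.64e-15), beside neighbours with a median of 0.10. ZNF703, also on chromosome 8, is a relative of ZNF503 and an oncogene of luminal breast cancer. It had 1.07, 0.780 and 1.38 CPM in SETDB1-knockout cells and 2.44, 2.11 and 2.15 CPM in control-knockout cells. Its log2 fold change was -1.05 ± 0.19 (SE; edgeR adjusted p = 6.28e-05), the largest adjusted p of the 19.

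ZNF619, ZNF620 and ZNF621, KRAB genes side by side on chromosome 3, all fell. ZNF619 had 1.5997, 1.56 and 1.46 CPM in SETDB1-knockout cells and 4.90, 6.21 and 5.54 CPM in control-knockout cells, 3.61-fold lower (log2 -1.85 ± 0.13, SE; edgeR adjusted p = 3.06e-10). ZNF620 averaged 4.26 CPM in SETDB1-knockout cells and 5.87 CPM in control-knockout cells, and ZNF621 averaged 44.1 CPM in SETDB1-knockout cells and 58.9 CPM in control-knockout cells. Their log2 fold changes were -0.46 and -0.42, while the neighbours had a median of 0.14. ZNF597, an imprinted gene on chromosome 16 expressed from the maternal copy, had 3.80, 3.61 and 2.87 CPM in SETDB1-knockout cells and 8.24, 8.55 and 8.47 CPM in control-knockout cells, a log2 fold change of -1.30 ± 0.11 (SE; edgeR adjusted p = 1.75e-09). On the X chromosome ZNF630 had 0.866, 1.13 and 1.08 CPM in SETDB1-knockout cells and 2.40, 2.59 and 3.22 CPM in control-knockout cells, a log2 fold change of -1.41 ± 0.17 (SE; edgeR adjusted p = 6.74e-07). In all of these genes every SETDB1-knockout library was below every control library.

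Genes with a shared number, which are often related by duplication, did not always move alike. ZNF280A on chromosome 22 rose by a log2 fold change of 0.72, whereas ZNF280B beside it and ZNF280C on the X chromosome had lower calls at -0.33 and -0.38, and ZNF280D was not called. ZNF75A rose by a log2 fold change of 0.27 and ZNF75D fell by 0.44 on the log2 scale. ZNF354C rose by 0.30 and ZNF354B fell by 0.28 on the log2 scale, and ZNF354A was not called. ZNF518A fell as given above, while ZNF518B had a log2 fold change of 0.15 that was called with all libraries and lost without each SETDB1-knockout library in turn or without control replicate 1 or 2, at adjusted p-values of 0.0503 to 0.179 (edgeR). ZNF286A and ZNF286B rose by log2 fold changes of 0.25 and 0.23, but 61.0% and 59.1% of their 50-base stretches also occur in other genes, so their values are not separate. Neither ZNF33A and ZNF33B nor ZNF658 and ZNF658B were called. With the neighbourhood median taken out, ZNF75A (0.12), ZNF75D (-0.12), ZNF354B (-0.14), ZNF280B (-0.19) and ZNF280C (-0.12) were not called either.

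Outside the KRAB and SCAN lists, several of the genes have known roles in chromatin or in handling RNA. They were picked for those roles after their values were seen. ZNF638, a protein that works with the HUSH complex and SETDB1 to silence retroviral DNA, was among the most abundant by CPM, with 207, 188 and 184 CPM in SETDB1-knockout cells and 193, 183 and 194 CPM in control-knockout cells. Its groups overlapped and it was not called (log2 0.02 ± 0.06, SE; edgeR adjusted p = 0.746). ZNF644, which brings the H3K9 methyltransferase G9a to DNA, averaged 52.5 ± 2.65 CPM in SETDB1-knockout cells and 60.6 ± 1.04 CPM in control-knockout cells (SD, n = 3 each) and fell by 0.21 on the log2 scale. Of the partners of ZMYND8, ZNF687 rose by a log2 fold change of 0.34 while ZNF532 was not called. ZNF592, the third of them, had -0.18 and was lost without control replicate 2, at -0.17 and an adjusted p of 0.0506 (edgeR). ZNF512B, which recruits the NuRD complex, averaged 109 CPM in SETDB1-knockout cells and 83.5 CPM in control-knockout cells, a log2 fold change of 0.38 beside a neighbourhood median of 0.35. With the neighbourhood median taken out, neither ZNF512B (0.03) nor ZNF644 (0.06) was called. ZNF598, the ubiquitin ligase that senses collided ribosomes, fell by 0.21 on the log2 scale, and ZNF622, whose yeast relative acts in ribosome assembly, rose by a log2 fold change of 0.30.

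By level, the tested genes reached from 0.018 to 38.1 CPM per kb of exon, with a median of 2.56. The most abundant per kb was ZNF300, a KRAB gene on chromosome 5, at 46.3 CPM per kb in the SETDB1 knockout and 29.9 CPM per kb in the control knockout. Its libraries had 205, 205 and 202 CPM in SETDB1-knockout cells and 134, 138 and 123 CPM in control-knockout cells, all apart, with a log2 fold change of 0.63 ± 0.05 (SE; edgeR adjusted p = 3.86e-09). ZNF664 followed at 24.6 CPM per kb in SETDB1-knockout cells and 28.0 CPM per kb in control-knockout cells and fell by 0.18 on the log2 scale. ZNF32 had 23.2 CPM per kb in SETDB1-knockout cells and 20.4 CPM per kb in control-knockout cells and was called higher with a log2 fold change of 0.19. That call was lost without SETDB1-knockout replicate 3 (0.18, adjusted p = 0.0539), control replicate 1 (0.14, 0.0786) or control replicate 2 (0.16, 0.0839) in the same edgeR test. ZNF593, whose yeast relative acts in ribosome assembly, had 23.2 CPM per kb in SETDB1-knockout cells and 17.7 CPM per kb in control-knockout cells, but a gene on the opposite strand overlaps all of its exon bases. By level in CPM, calls of at least 2-fold came to 0 of the 4 genes under 1 CPM, 8 of the 33 between 1 and 5 CPM, 6 of the 97 between 5 and 20 CPM and 5 of the 80 above 20 CPM. The correlation between level and the size of the change across the 214 genes was -0.28 (Pearson) and -0.16 (Spearman), with all points from the same 6 libraries.

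The genes often moved with the chromosome around them. Across the 214 genes the log2 fold change and the median of the neighbours had a Pearson r of 0.27 and a Spearman rho of 0.40. This is a description only, since neighbouring genes share neighbours. With the neighbourhood median taken out, 98 of the 148 called genes kept their call and 19 changed sign. On the X chromosome 7 of 11 genes were called lower (63.6%, beside 31.6% of all genes tested) and none higher, with a median of -0.35 beside -0.14 for the 651 other X genes tested. ZNF711, mutated in a form of X-linked intellectual disability, averaged 5.14 ± 0.41 CPM in SETDB1-knockout cells and 8.22 ± 0.57 CPM in control-knockout cells (SD, n = 3 each), a log2 fold change of -0.67 ± 0.10 (SE; edgeR adjusted p = 4.08e-06), and all 7 calls held with each library left out. Chromosome 20 was the reverse, with 7 of 8 genes called higher, where the share of all genes was 31.9%, and a median of 0.38 beside 0.20 in its other genes. The call of ZNF337 there was lost without SETDB1-knockout replicate 1 or 3 or control replicate 2 or 3, at adjusted p-values of 0.0642 to 0.216 (edgeR). A gene on the opposite strand overlaps 73.8% of its exon bases. ZNF217 on chromosome 20, an oncogene gained in breast cancer, averaged 97.9 CPM in SETDB1-knockout cells and 75.4 CPM in control-knockout cells, a log2 fold change of 0.38 beside a neighbourhood median of 0.43. On chromosome 6 ZNF292 averaged 67.6 CPM in SETDB1-knockout cells and 96.2 CPM in control-knockout cells, a log2 fold change of -0.51, and its neighbours had -0.57. With those medians taken out, ZNF217 (-0.05) and ZNF292 (0.07) were not called.

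**Figure D5:**
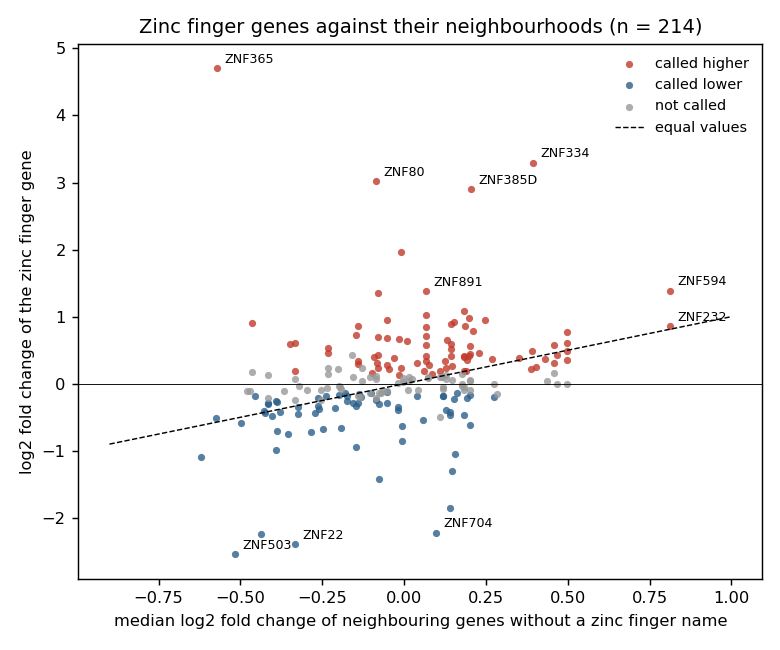
Log2 fold change of each of the 214 zinc finger genes (vertical axis) against the median log2 fold change of its neighbours without a zinc finger name (horizontal axis), coloured by call, with a dashed line where the values are equal. ZNF365, ZNF334, ZNF80 and ZNF385D lie far above the line and ZNF503, ZNF22, ZNF488 and ZNF704 far below it, while ZNF232 lies on it.

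The promoter windows of the scattered genes held 0 to 55 CG dinucleotides. A RefSeq window matched 171 of the 218 genes, with a median of 23 CG dinucleotides, against 14 in all 35116 windows. Each zinc finger gene has 1 window here, whereas the 35116 count every window of a gene, so the bases of the comparison differ. That also holds for the motif shares below. The window nearest to the GENCODE start was taken without a limit of distance, and in ZNF385D it lay 622111 bases away. Genes called higher had a median of 23 and genes called lower 25, while the 8 windows of genes at least 2-fold higher had a median of 23 and the 5 of genes at least 2-fold lower 18. Across 170 tested genes with a window the CG count and the log2 fold change had a Pearson r of 0.02 and a Spearman rho of -0.04. On both strands CCAAT, the sequence that NF-Y binds, was found in 42.1% of the zinc finger windows beside 34.6% of all windows. CCGGAA, a core of ETS factor sites, was in 47.4% beside 17.2%, and GGGCGG, the GC box of SP1, in 63.7% beside 45%. Each motif was searched alone, and matches to different motifs may overlap. Among the 7 windows of the chromosome 12 cluster, CG counts were 20 to 46 and the motifs were in 4, 3 and 4 windows in that order. A match is a string of letters and no measured binding.

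Genes of the KRAB co-repressor pathway are given for comparison. Of 15 tested, 8 were called higher and 3 lower, where the shares of all genes tested were 31.9% and 31.6%. TRIM28, the co-repressor that KRAB binds, averaged 577 ± 17.5 CPM in SETDB1-knockout cells and 327 ± 7.32 CPM in control-knockout cells (SD, n = 3 each), a log2 fold change of 0.82 in a neighbourhood with a median of 0.67. The 3 subunits of the HUSH complex, which works with SETDB1, are given in full. PPHLN1, periphilin, averaged 108 CPM in SETDB1-knockout cells and 169 CPM in control-knockout cells and fell by 0.64 on the log2 scale. FAM208A, also named TASOR, averaged 107 CPM in SETDB1-knockout cells and 95.2 CPM in control-knockout cells and was called higher at 0.17 (edgeR adjusted p = 0.00801), a call lost without SETDB1-knockout replicate 2 (0.13, adjusted p = 0.0618). MPHOSPH8 averaged 27.2 CPM in SETDB1-knockout cells and 27.6 CPM in control-knockout cells and was not called (edgeR adjusted p = 0.771). MORC2, an ATPase that works with HUSH, rose by a log2 fold change of 0.28. The largest change of the list was in ATF7IP, at 0.91 beside a neighbourhood median of 0.10. CHD3 (0.86), ZNF274 (0.77), HDAC1 (0.40) and CBX5 (0.23) were also called higher. Their neighbourhood medians were 0.61, 0.68, -0.05 and 0.15 in that order. CBX3 and HDAC2 had lower calls at -0.40 and -0.35, beside neighbourhood medians of -0.39 and -0.51. CHD4, CBX1 and SUMO2 were not called.

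Some zinc finger genes are copies of one another, and reads shared between copies may have been split or dropped in counting. In 52 of the 218 genes over 10% of the 50-base stretches of the exons also occur in exons of other genes, whereas in 82 it is under 1%. The stretches were compared on both strands, so exons that overlap at the same place count as shared, and the 52 are not copies alone. In ZNF593 87.7% were shared, with 100% of its exon bases overlapped, and in ZNF658B 72.6% were shared without overlap. Exons of other genes overlap 103 of the 218 genes to some extent, but over more than 50% of their length in 3, ZNF593, ZNF337 and ZNF80.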

How the data were processed

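RNA-seq libraries of 6 H1299 samples, 3 with a guide against SETDB1 and 3 with a control guide, were grouped by their titles. Per the labels' protocols, total RNA went into an Illumina TruSeq RNA kit. The table that the authors deposited holds raw counts of reads for each gene, under Ensembl identifiers. Tools named in the submitters' processing notes are FastQC, TopHat2 and HTSeq, on GRCh38.p7, without versions. Every row had at least 1 library with 11 counts or more, so lower genes were not analysed here. Identifiers were matched without version to GENCODE 29, which named 18595 of 18677 rows and gave the coordinates. Of the 218 zinc finger rows, 193 had the same version.

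Counts were filtered with filterByExpr (1002 genes removed), scaled by TMM (factors 0.976 to 1.02) and fitted for all genes with robust quasi-likelihood models in edgeR 4.0.16 (R 4.3.3), SETDB1 knockout against control knockout, with Benjamini-Hochberg adjustment over 17675 genes and a threshold of 0.05. The common biological coefficient of variation was 4.89%. The steps were tested on simulated counts. Between replicates of a group, chi-square over its degrees of freedom was 2.28 to 9.83, so none was a copy of another. Neighbourhood medians took 25 genes with log2 CPM above 3 on each side that have no zinc finger name. Exons came from GENCODE 29 and promoter windows from RefSeq.

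The genes and the lists were chosen with earlier results of these data known, and the KRAB and SCAN lists were written by hand from general knowledge and may miss members. The naming rule took the 8 largest rises and falls among called genes without overlap, the 4 smallest p-values in each direction, the 4 highest levels per kb, up to 2 rises and 2 falls of each list and the largest change each way in each cluster. Other genes named in the text were chosen after their values were seen. Other scalings tried were upper quartile, library size alone and the size factors of DESeq2. Further alternatives were a filter of 1 CPM in 3 libraries or none, the tests of DESeq2 1.42.0 and limma-voom (limma 3.58.1), an adjusted p under 0.01, a test against 1.5-fold (glmTreat), a replicate block, each library left out in turn, and the neighbourhood median subtracted.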

Additional observations from a re-analysis of the deposited data

How the results depend on the processing

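The count of scattered zinc finger genes called higher (81) stayed between 71 and 92 and that of genes called lower (67) between 51 and 67 under the scalings, filters, DESeq2, limma-voom, the 0.01 threshold and the subtraction of the neighbourhood median. Leaving out 1 library gave 74 to 78 higher and 57 to 67 lower calls and a median log2 fold change of 0.02 to 0.06. The test against 1.5-fold left 23 higher and 13 lower calls. With library size alone the median was 0.084, and the median of all genes shifted by 0.04. Of the genes named by the rule, ZNF271P and ZNF24 changed sign with the neighbourhood median subtracted, to 0.14 and 0.11. Same-numbered libraries of the groups showed little shared deviation (correlations 0.088, -0.063 and 0.025), and libraries with different numbers had -0.133 to 0.123. With 3 libraries per group, these values cannot decide whether the numbers pair the samples. With the replicate number as a block 85 genes were called higher and 70 lower with a median of 0.05, all 148 calls included. DESeq2 called 73 higher and 58 lower, and 130 of the 148 calls held. The cause of these differences was not tested. In the control knockout ZNF365 rests on 10 counts, so the size of its rise is uncertain.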
